A study of Mus musculus with 12 samples.

Results

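The 10 genes described here encode transcription factors known to act on the Foxp3 gene: Runx1, Runx3 and their partner Cbfb, Ets1, Foxo1, Foxo3, Creb1, Nfatc1, Satb1 and Gata3. They were chosen by name, with earlier results of these data known, from the 55453 genes of a read count table. Of the 10, 9 had enough reads to be tested. Foxp3 is the lineage factor of regulatory T (Treg) cells, which hold immune responses in check, and CNS4 is a distal enhancer of that gene. The series asked what the loss of CNS4 changes in the Treg transcriptome, and the 12 libraries formed 4 groups of 3. These were males labelled CNS4 knockout, males labelled CNS4 floxed (wild type), females labelled CNS4 knockout heterozygotes, and females labelled CNS4 floxed heterozygotes. All mice were C57BL/6, age and sex were matched per the submitters, and no age was given. All cells were sorted as CD4 and Foxp3 positive and lysed without further treatment. The organ is not spelled out, although the letters Thy stand in each sample's title. The labels give no Cre driver, do not say which X chromosome was in use in the sorted female cells, and do not state that the libraries are from separate animals. The p-values therefore measure the spread between these libraries, which may be technical.

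Foxp3 lies on the X chromosome and is read through a promoter and several conserved enhancers, each bound by its own set of factors. Runx1 and Runx3 bind DNA through a domain that needs Cbfb as a partner, and the complex holds Foxp3 expression through an enhancer within the gene. Ets1 and Creb1 bind that same enhancer when its DNA is demethylated. Foxo1 and Foxo3 are forkhead factors that Akt keeps out of the nucleus and that bind the Foxp3 promoter and enhancer. Nfatc1 belongs to the calcium-activated factors that carry T cell receptor signals to Foxp3. Satb1 is a chromatin organiser that acts on the Foxp3 enhancers of Treg precursors in the thymus, and Gata3, the lineage factor of T helper 2 cells, binds Foxp3 regulatory DNA in Treg cells.

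The number of reads assigned to a gene in this table went with its strand. Protein-coding genes of the plus strand held 96.6% of all reads of protein-coding genes and those of the minus strand 3.38%. Runx3, Cbfb, Ets1, Foxo1 and Creb1 lie on the plus strand, on chromosomes 4, 8, 9, 3 and 1. Runx1, Foxo3, Satb1, Nfatc1 and Gata3 lie on the minus strand, on chromosomes 16, 10, 17, 18 and 2. A low count of these 5 genes does not show a low transcript level. Among 10945 minus-strand protein-coding genes, 7.53% had a higher mean count, scaled to library size, than Nfatc1, 8.01% than Gata3 and 12.7% than Satb1. The share was 20.2% for Runx1 and 46.3% for Foxo3. The counts behind these shares were not divided by transcript length, which was 3978 bases for Gata3 and 19027 for Satb1. The shares therefore do not rank transcript levels.

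Of the minus-strand members, Gata3, Satb1 and Runx1 each share exonic bases with a plus-strand gene, Gm13256, Gm6934 and Gm26626 in the GENCODE M21 annotation. The 2 stretches printed here, from RefSeq on GRCm38.p6 and read 5′ to 3′ on the minus strand, hold 250 bases before and 30 bases after the annotated start of Gata3, chr2:9878571-9878850, and of Satb1, chr17:51833261-51833540. They are shown because all 280 bases of each lie in an exon of the opposite gene, and the 30 bases in capitals lie in exons of both genes, so that a read from there belongs to one row or the other by its strand alone.
Gata3: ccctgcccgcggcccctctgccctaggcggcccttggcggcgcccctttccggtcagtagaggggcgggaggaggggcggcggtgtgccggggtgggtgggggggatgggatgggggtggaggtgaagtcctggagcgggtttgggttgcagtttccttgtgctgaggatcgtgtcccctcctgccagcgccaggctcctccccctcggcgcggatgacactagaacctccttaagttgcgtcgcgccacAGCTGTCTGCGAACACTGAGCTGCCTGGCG
Satb1: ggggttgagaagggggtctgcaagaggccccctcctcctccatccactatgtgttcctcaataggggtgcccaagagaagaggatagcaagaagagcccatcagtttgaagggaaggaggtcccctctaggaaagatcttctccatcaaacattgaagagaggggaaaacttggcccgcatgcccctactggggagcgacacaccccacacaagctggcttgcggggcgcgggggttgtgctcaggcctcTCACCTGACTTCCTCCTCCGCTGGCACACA
The Gata3 stretch is 69.3% G and C and the Satb1 stretch 58.2%. The deposited counts carry no coordinates on this build, and the stretches describe the annotation, not where reads fell.

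Total gene counts ran from 12423335 to 30244505 per library, and the highest was male knockout library 3. Of 13 checked genes that Treg cells express, the 9 on the plus strand, among them Il2ra, Ctla4 and Trac, had at least 7746 counts in every library. The 4 on the minus strand had far fewer, with 47 to 140 for Ikzf2, 121 to 655 for Cd3g, 72 to 198 for Cd4 and 6 to 32 for Izumo1r. Foxp3 had 1878, 1462 and 2037 CPM (counts per 1e6 gene counts, with TMM scaling) in male knockout libraries 1, 2 and 3, against 2675, 2588 and 2227 CPM in male floxed libraries 1, 2 and 4. In female knockout libraries 1, 2 and 3 it had 685, 1824 and 825 CPM, against 2582, 2658 and 2657 CPM in female floxed libraries 1, 2 and 3. Knockout libraries were below every floxed library of their sex in both sexes, and female knockout library 2 stood far above the other 2 of its group. Genes lower without overlap made up 6.13% of those tested in males and 9.7% in females. Over both sexes Foxp3 had a log2 fold change, knockout over floxed, of -0.86 (SE 0.22, adjusted p = 0.06 in edgeR). It passed in 7 of its 23 alternatives and not in the others. Among the 7 were DESeq2 (adjusted p = 0.00627), limma-voom (2.75e-04), a minimum of 5 CPM in 3 libraries (0.0429) and a GC content and length correction (0.0239). It also passed without female knockout library 2 (0.00117). Over all 23 the adjusted p ran from 2.75e-04 to 0.212. Of all genes, DESeq2 called 9.17% and limma-voom 37.3% over both sexes, and 14.3% passed as lower without female knockout library 2. The Foxp3 row also shares exonic bases with genes of the other strand.

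Ets1 was the most abundant of the plus-strand members per kilobase of transcript. It had 1928, 1794 and 5295 CPM in male knockout libraries 1, 2 and 3, against 3655, 5019 and 2361 CPM in male floxed libraries 1, 2 and 4. The male groups overlapped, and knockout library 3 was the highest of all 12 libraries. In females Ets1 had 1578, 1737 and 1444 CPM in the knockout libraries and 1743, 2289 and 2117 CPM in the floxed ones. All 3 female knockout libraries lay below all 3 floxed ones, the nearest by 1737 against 1743 CPM. Genes that were lower without overlap in females made up 9.7% of those tested. Its log2 fold change in males was -0.29 (SE 0.39, adjusted p = 0.999) and in females -0.37 (SE 0.39, adjusted p = 0.598), neither past the threshold of 0.05 in edgeR's quasi-likelihood test. In bulk samples, fewer cells of a type and less RNA per cell cannot be told apart.

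Of the RUNX complex, Runx3 and Cbfb lie on the plus strand, while Runx1 lies on the poorly counted minus strand. Its few counts do not show a low transcript level. Runx3, the RUNX protein best known for silencing Cd4 in CD8 T cells, had 12.8, 14.9 and 48.7 CPM in male knockout libraries, against 20.4, 25.1 and 21.5 CPM in male floxed libraries. One male knockout library was above all floxed ones and the other 2 were below them. In females Runx3 had 4.59, 9.44 and 4.80 CPM in knockout libraries and 8.17, 10.6 and 9.37 CPM in floxed ones, with knockout library 2 inside the floxed range. Male libraries gave Runx3 a log2 fold change of 0.19 (SE 0.47, adjusted p = 0.999) and female libraries one of -0.58 (SE 0.48, adjusted p = 0.492). Without male knockout library 3 the male value was -0.68. With a correction for GC content and length, 55.9% GC being the highest share among the members, the female value was -0.20, and that over both sexes was -0.05, against -0.20 without the correction.

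Cbfb, the subunit that stabilises RUNX proteins on DNA, had 83.4, 78.4 and 189 CPM in male knockout libraries, against 79.9, 145 and 67.0 CPM in male floxed libraries. In females it had 61.3, 78.6 and 60.6 CPM in knockout libraries and 57.7, 67.6 and 61.9 CPM in floxed ones. The genotypes overlapped in both sexes. Cbfb had a log2 fold change of 0.27 (SE 0.36) in males, turning to -0.25 without male knockout library 3, and 0.10 (SE 0.36) in females. Runx1 had 6, 12 and 63 counts in male knockout libraries against 13, 33 and 11 in male floxed ones, and 0, 7 and 1 counts in female knockout libraries against 3, 5 and 5 in female floxed ones. Its log2 fold changes, -0.19 (SE 0.82) in males and -0.64 (SE 1.13) in females, had 95% intervals of -2.02 to 1.63 and -3.15 to 1.86.

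Foxo1, which drives genes of naive T cell survival and homing, had 172, 131 and 280 CPM in male knockout libraries, against 184, 234 and 138 CPM in male floxed libraries. In females it had 211, 156 and 184 CPM in knockout libraries and 184, 186 and 176 CPM in floxed ones. The genotypes overlapped in both sexes, and the female means were 184 ± 27.6 CPM in knockout and 182 ± 5.07 CPM in floxed libraries (SD, n = 3 each). Over both sexes its log2 fold change was 0.04, with a 95% interval of -0.38 to 0.46. Gm20402, which shares 674 exonic bases with Foxo1 on the other strand, had 0 to 4 counts per library. Foxo3, its relative with overlapping functions in T cells, had 5 counts in the whole table, 1 in male knockout, 3 in male floxed, 0 in female knockout and 1 in female floxed libraries, and was not tested. The 0 counts over the 3 female knockout libraries allow a level of up to 0.068 CPM, counting error alone.

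Creb1, the cAMP-responsive factor, was the steadiest member. It had 434, 411 and 341 CPM in male knockout libraries, against 397, 327 and 328 CPM in male floxed libraries, and 410, 410 and 405 CPM in female knockout libraries, against 398, 414 and 382 CPM in female floxed ones. Its highest library was 1.33 times its lowest, while this ratio was 2.15 for Foxo1, 3.28 for Cbfb, 3.67 for Ets1 and 10.6 for Runx3. Over both sexes its log2 fold change was 0.11, with a 95% interval of -0.08 to 0.29, or a fold of 0.949 to 1.22.

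**Figure D1:**
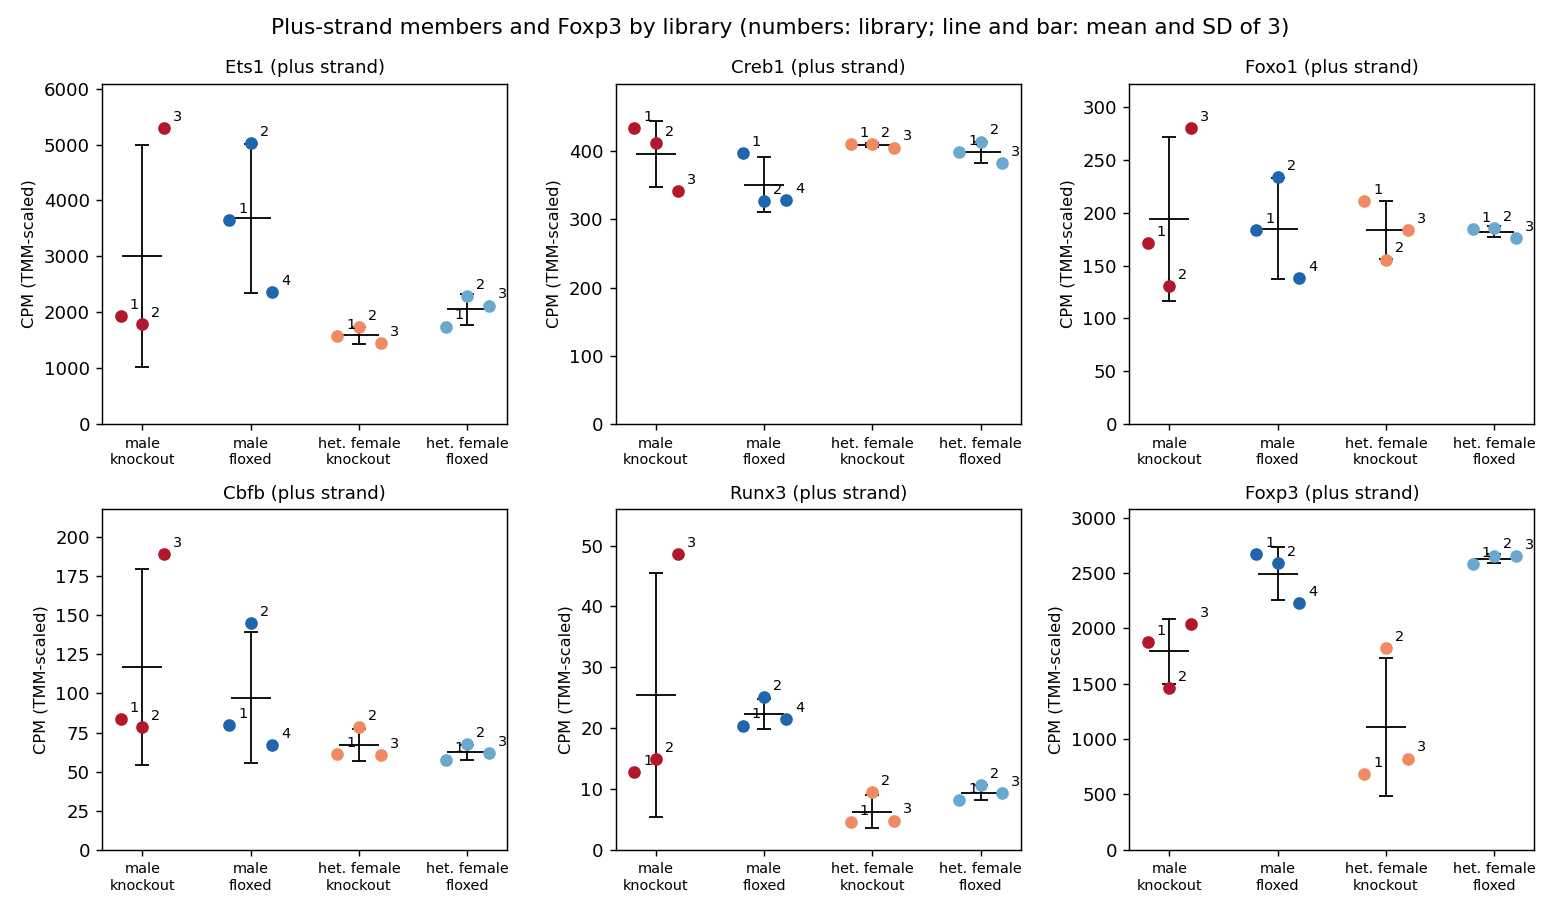
Level of each of the 5 plus-strand members and Foxp3 in every library (CPM), by group, with numbered points for libraries and lines for the group mean and SD of 3 libraries. Male knockout library 3 is the highest of the 12 for Runx3, Cbfb, Ets1 and Foxo1, while the Creb1 libraries lie between 327 and 434 CPM.

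Gata3 was the member nearest to the threshold in females and over both sexes. It had 3.84, 2.51 and 3.99 CPM in male knockout libraries, against 5.38, 4.89 and 4.10 CPM in male floxed libraries, and 0.604, 2.57 and 0.738 CPM in female knockout libraries, against 2.90, 5.36 and 3.73 CPM in female floxed ones. In each sex every knockout library was below every floxed one, a pattern that 6.13% of tested genes showed in males and 9.7% in females. These levels rest on 10 to 105 counts per library. As log2 fold changes this came to -0.47 (SE 0.46, adjusted p = 0.974) in males, -1.62 (SE 0.49, adjusted p = 0.15) in females and -1.04 (SE 0.34, adjusted p = 0.121) over both sexes. DESeq2 gave adjusted p = 0.0222 in females and 0.0283 over both sexes, where it called 7.3% and 9.17% of all genes. Limma-voom gave 4.9e-04 and 0.00128, where it called 43.8% and 37.3% of all genes.

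The Gata3 value in females turned on 1 library. Female knockout library 2 had the highest Foxp3 and Gata3 of its group, so leaving it out lowers the value by construction, and a small p there is no added support. Without female knockout library 2 the female log2 fold change was -2.55 (SE 0.36, adjusted p = 0.00108) and that over both sexes -1.51 (adjusted p = 0.00225). In that fit 16.5% of 13029 genes passed as lower in females and 14.3% over both sexes. With that library as the sole female knockout library, assumed to vary like the other groups, the female value was -0.63. Leaving out female knockout library 1 alone, the lowest for Gata3, gave -1.27 (SE 0.49, adjusted p = 0.463). Over 22 alternatives the adjusted p of the female contrast ran from 4.86e-04 to 1. Female minus male, the Gata3 contrasts differed by -1.15 (SE 0.67, adjusted p = 0.892), which did not pass, and without female knockout library 2 by -2.09 (adjusted p = 0.0171), in a fit where 8.37% of genes passed in this direction.

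The row of Gm13256, annotated opposite the start of Gata3, held 11364 counts against 635 for Gata3 and was the higher of the pair in all 12 libraries. It had 911, 715 and 2274 counts in male knockout libraries, against 1437, 1282 and 1188 in male floxed libraries, and 100, 606 and 133 counts in female knockout libraries, against 601, 910 and 1207 in female floxed ones. The low pair of female knockout libraries was thus the same in both rows. On the log2 CPM scale Gm13256 and Gata3 had a Pearson r of 0.979 over the 12 libraries, which share depth and scaling, and Gm13256 ranked number 12 among all tested genes in likeness to Gata3. For Gm6934 and Satb1 the r was 0.87 and the rank 175, and for Gm26626 and Runx1 0.941 and 315. For Gm13256 the log2 fold change came to -0.56 (SE 0.59, adjusted p = 0.984) in males, -1.63 (SE 0.61, adjusted p = 0.213) in females and -1.09 (SE 0.42, adjusted p = 0.19) over both sexes. Whether the Gm13256 row holds reads of Gata3 transcripts was not tested.

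Satb1 had 19, 8 and 89 counts in male knockout libraries, against 53, 45 and 20 in male floxed ones, and 6, 19 and 7 counts in female knockout libraries, against 28, 23 and 32 in female floxed ones. The male groups overlapped and the female groups did not, knockout being the lower. In females 9.7% of tested genes were lower without overlap. Satb1 differed by -0.70 (SE 0.63, adjusted p = 0.971) on the log2 scale in males, -1.33 (SE 0.69, adjusted p = 0.306) in females and -1.01 (SE 0.47, adjusted p = 0.257) over both sexes. Gm6934, opposite its start, held 782 counts against 349 for Satb1, and its log2 fold change over both sexes was -0.93 (SE 0.31, adjusted p = 0.135). Gm26626, opposite Runx1, held 1840 counts against 159, and its value over both sexes was -0.62 (SE 0.50, adjusted p = 0.499). Nfatc1 had 3.46, 2.91 and 5.51 CPM in male knockout libraries, against 4.35, 4.89 and 2.43 CPM in male floxed ones, and 1.21, 3.79 and 2.51 CPM in female knockout libraries, against 2.97, 5.21 and 4.53 CPM in female floxed ones. The genotypes overlapped in both sexes, and its log2 fold change was 0.03 (SE 0.43) in males, against -0.76 (SE 0.44, adjusted p = 0.338) in females.

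**Figure D2:**
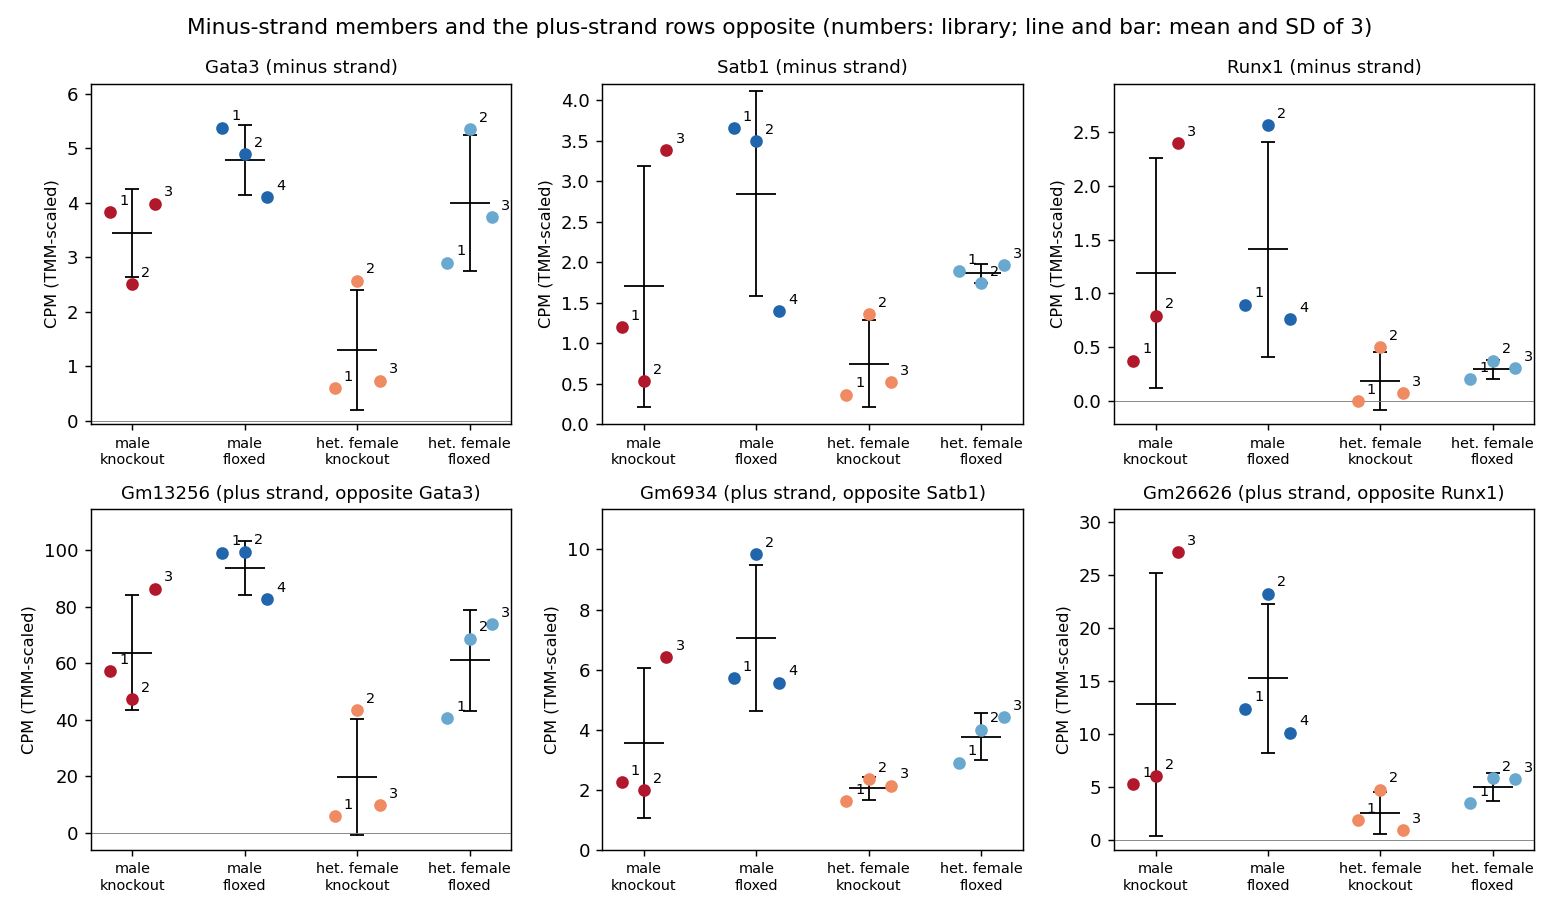
Levels of Gata3, Satb1 and Runx1 in every library, by group, with the plus-strand gene opposite each of them in the lower row of panels (CPM, with group means and SD of 3 libraries). Female knockout libraries 1 and 3 are the lowest of the 12 for Gata3, at 0.604 and 0.738 CPM, and female knockout library 2 is at 2.57 CPM.

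Set against all genes, no member passed in any comparison by edgeR with all 12 libraries, no replicate block and no correction. In males 0 of 9 members tested passed, where 0.0242% of 12411 genes did, and 0 had an unadjusted p under 0.05, where 8.12% of all genes had one. In females 0 passed, where 0.201% of all genes did, and 1, Gata3, had an unadjusted p under 0.05, where 19.2% of all genes had one. Over both sexes 0 passed, where 3.31% of all genes did, and 1, again Gata3, had an unadjusted p under 0.05, where 20.2% did. The median log2 fold change of the 9 members was 0.03 in males, -0.58 in females and -0.33 over both sexes, against 0.01, -0.02 and -0.02 for all genes. Over the plus-strand members alone it was 0.17, 0.01 and 0.04.

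Other tools called more members in females. DESeq2 called 0 in males, 1 (Gata3) in females and 1 (Gata3) over both sexes, where it called 2.03%, 7.3% and 9.17% of all genes. Limma-voom with quality weights called 0 in males, where it called 1.43% of all genes. It called Runx3, Satb1, Nfatc1 and Gata3 in females, 4 of 9, where it called 43.8% of all genes, and Runx3, Ets1, Satb1 and Gata3 over both sexes, also 4 of 9, where it called 37.3%. For the difference between the sexes edgeR and DESeq2 called 0 of 9 members and 0% of all genes, edgeR gave 0 members an unadjusted p under 0.05, where 2.73% of genes had one, and limma-voom called 1, Gata3, where it called 8.38%.

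**Figure D3:**
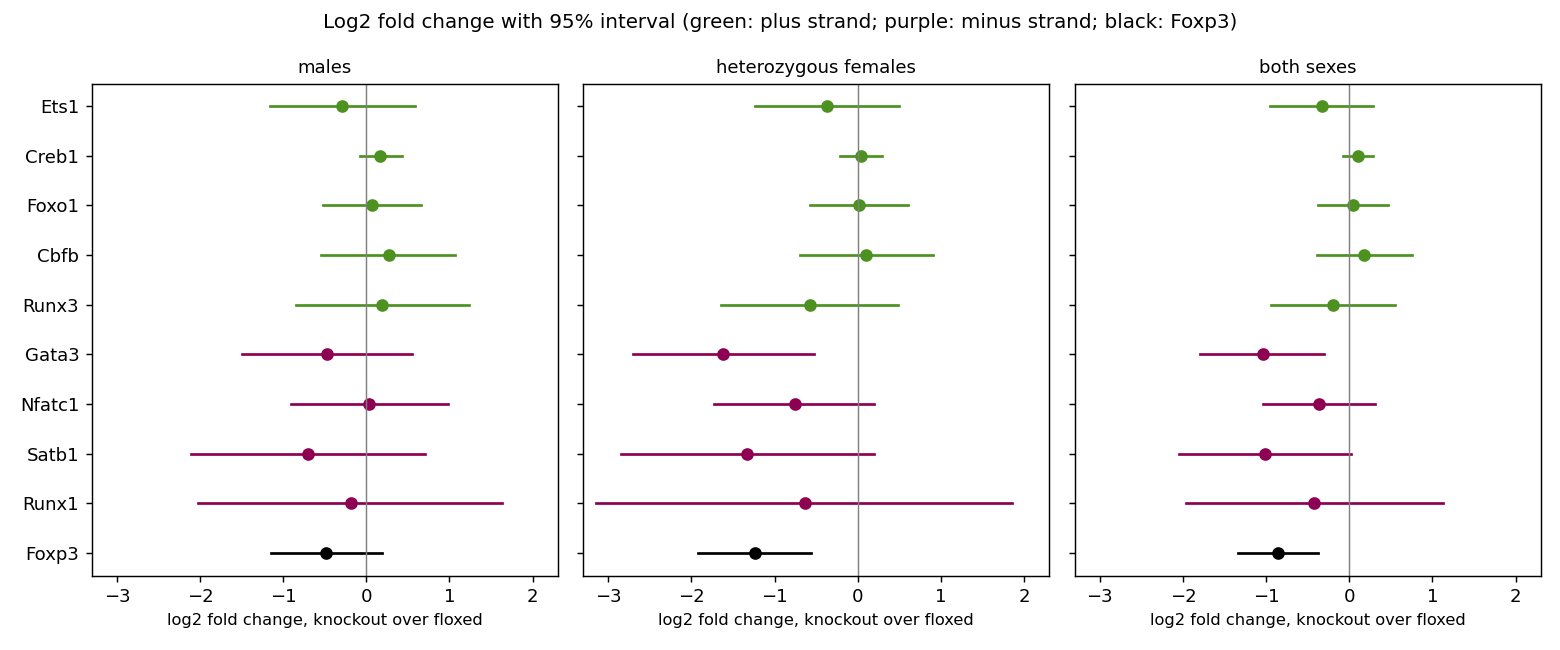
Log2 fold change of knockout over floxed for the 9 tested members and Foxp3, with 95% intervals from edgeR, in males, in females and over both sexes. The Gata3 interval lies below 0 in females (-2.70 to -0.53) and over both sexes (-1.79 to -0.30), and the male intervals of all members include 0.

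Some libraries held the extremes of several members. Male knockout library 3 was the highest of the 12 libraries for Runx3, Cbfb, Ets1, Foxo1 and Nfatc1, and female knockout library 1 was the lowest for Runx1, Runx3, Satb1, Nfatc1 and Gata3. Among all tested genes 16.1% were highest in that male library and 24.7% lowest in that female one, and no difference of the members from these shares was tested. Leaving out male knockout library 3 moved the male log2 fold change of Ets1 to -0.97, of Satb1 to -1.69 and of Runx1 to -1.23, and turned Runx3, Cbfb, Foxo1 (-0.28) and Nfatc1 (-0.27) below 0. Leaving out male floxed library 2 moved Ets1 to 0.00. None of these passed the threshold. In females, leaving out knockout library 2 moved Runx1 to -2.85, Satb1 to -2.07, Nfatc1 to -1.18 and Runx3 to -0.99, and Gata3 alone among the members passed. Leaving out knockout library 1 moved them the other way, Runx1 to -0.04, Satb1 to -1.0, Nfatc1 to -0.43, Runx3 to -0.41 and Gata3 to -1.27.

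**Figure D4:**
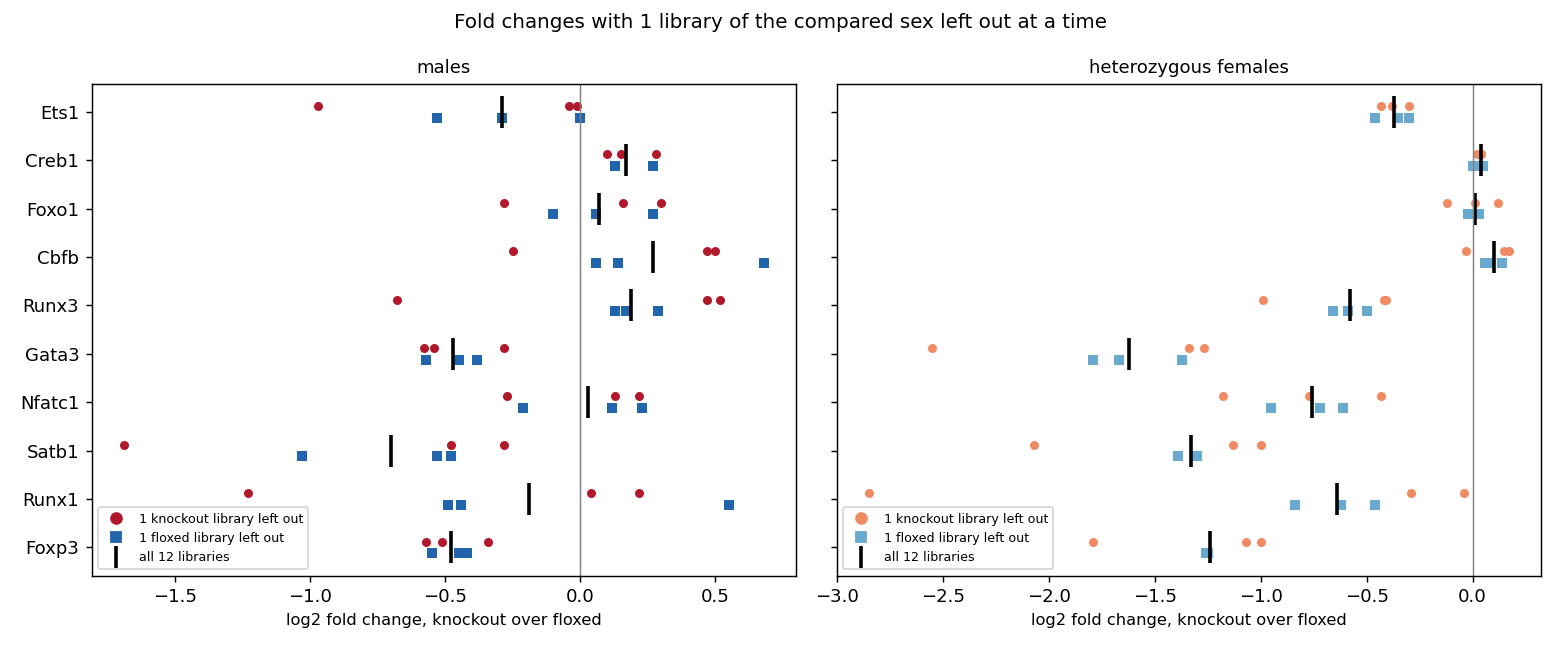
Log2 fold change of each member with 1 library of the compared sex left out in turn, circles for a knockout and squares for a floxed library, with a bar for the value from all 12 libraries. The female Gata3 values run from -2.55 to -1.27 and stay below 0, while the male Runx3 values run from -0.68 to 0.52.

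In females the GC content correlation and the mitochondrial share separated the genotypes, while the summed myeloid and double-positive thymocyte markers overlapped. Across genes, GC content and the deviation of a gene's log2 CPM from its mean over the 12 libraries had a Spearman correlation of -0.392, -0.133 and -0.304 in female knockout libraries 1, 2 and 3, against -0.117, 0.0221 and 0.154 in female floxed libraries. It was -0.0928, 0.0458 and 0.398 in male knockout libraries, against 0.154, 0.24 and 0.447 in male floxed libraries. Mitochondrial transcripts took 4.04, 2.77 and 3.40% of gene counts in female knockout libraries against 2.64, 2.37 and 2.27% in female floxed ones. They took 2.69, 2.59 and 1.17% in male knockout libraries against 2.05, 1.80 and 1.61% in male floxed ones. The summed level of 20 myeloid markers was 825 to 1623 CPM in female knockout libraries against 270 to 1113 CPM in female floxed ones, and 233 to 1776 CPM in male knockout libraries against 108 to 1655 CPM in male floxed ones. None of the 20 was at 0 in every library, 5 (Cd68, C1qa, Cd14, Csf2ra and Xcr1) had at most 10 counts in any library, and 0 of 14 tested passed in edgeR over both sexes. Of these 14, 12 had a positive log2 fold change in females, with a median of 1.0, and the median was 0.32 in males and 0.66 over both sexes. Among all tested genes 51.2% had a negative log2 fold change in females, with a median of -0.02. Markers of double-positive thymocytes, 9 in all, summed to 719 to 1288 CPM in female knockout libraries against 669 to 853 CPM in female floxed ones, and 398 to 724 CPM in male knockout libraries against 530 to 663 CPM in male floxed ones. All 7 of them tested had a positive log2 fold change in females, with a median of 0.65, and the median was -0.05 in males. Of 6 B cell, 8 thymic epithelial and 6 natural killer and innate lymphoid markers, 0, 0 and 1 (Il1rl1, the IL-33 receptor, which Treg cells also express) passed over both sexes. The part of these traits in the members' values was not tested.

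A comparison of floxed females with floxed males, added after the values were seen, set the members' levels between the control groups side by side. Runx3 had 9.39 ± 1.24 CPM in floxed females and 22.4 ± 2.48 CPM in floxed males, and Ets1 had 2050 ± 279 CPM and 3678 ± 1329 CPM (SD, n = 3 each). Both, and Runx1, were lower in every floxed female than in any floxed male library, a pattern shown by 14.3% of tested genes. On the log2 scale, females minus males, the difference was -1.25 for Runx3 (SE 0.48, adjusted p = 0.665), -0.84 for Ets1 (SE 0.40, adjusted p = 0.665) and -2.22 for Runx1 (SE 0.95, adjusted p = 0.665). By edgeR 0 of 9 members passed, where 0.0322% of genes did, and 2 (Runx1 and Runx3) had an unadjusted p under 0.05, where 6.14% of genes had one. DESeq2 and limma-voom called 0 members, where they called 0.479% and 0.0725% of all genes. With the GC content and length correction the difference was -0.95 for Runx3 (SE 0.33) and -0.72 for Ets1 (SE 0.33). Sex and the floxed allele's heterozygosity cannot be told apart here, and the part of GC content was not tested.

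Per kilobase of transcript, the median level over the 12 libraries was 239 CPM for Ets1, 29.2 for Creb1, 21.2 for Foxo1, 21.0 for Cbfb and 2.35 for Runx3. Ets1 was above Creb1 and Cbfb above Runx3 in 12 of 12 libraries, and Creb1 above Foxo1 in 10. Foxo1 and Cbfb did not separate, with Foxo1 the higher in 5 of 12.

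The genes most like the plus-strand members across the 12 libraries, by Pearson r of log2 CPM, were as follows. Ets1 was closest to Btg1, an antiproliferative gene of resting lymphocytes (0.993), Prkcq, the kinase PKC-theta of the T cell receptor pathway (0.993), and Srrm2, a splicing protein (0.992). Runx3 was closest to Fbxl14 (0.987), Fam83d (0.984) and Vapb (0.98), and Cbfb to Usp1, a deubiquitinase of DNA repair (0.988), Slc35g1 (0.984) and Isoc1 (0.98). Foxo1 was closest to Aff4, a scaffold of transcription elongation (0.959), Pptc7 (0.955) and Itsn2 (0.954). Creb1 was closest to Mcm4, a replication helicase subunit (0.953), Tmx3 (0.911) and Rtcb (0.894). Of these, Mcm4 (1.53 to 4.53 CPM) and Rtcb (2.5 to 9.11 CPM) lie on the poorly counted minus strand. These values are descriptions over libraries that share depth and scaling.

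Among other genes of the same pathways, changes past the threshold were few and appeared over both sexes alone. The lists were chosen with earlier results of these data known, so the calls in them are descriptions. Of 30 further regulators of Foxp3, 23 were tested, 2 rose and 1 fell, with a median log2 fold change of -0.24. Irf4, a factor of T cell receptor signalling and effector Treg cells, averaged 312 ± 12.4 CPM in male knockout libraries and 210 ± 41.5 CPM in male floxed ones, and 324 ± 21.0 CPM in female knockout libraries and 219 ± 7.86 CPM in female floxed ones (SD, n = 3 each), a log2 fold change of 0.57 (SE 0.10, adjusted p = 0.013). Rbpj, the DNA-binding partner of Notch, averaged 127 ± 14.9 CPM in male knockout libraries and 84.3 ± 15.4 CPM in male floxed ones, and 130 ± 25.4 CPM in female knockout libraries and 73.9 ± 6.74 CPM in female floxed ones (SD, n = 3 each). It rose by 0.70 on the log2 scale (SE 0.13, adjusted p = 0.0182). Lef1, a Wnt pathway factor of thymocytes and naive T cells, averaged 812 ± 136 CPM in male knockout libraries and 1202 ± 212 CPM in male floxed ones, and 792 ± 24.8 CPM in female knockout libraries and 978 ± 35.5 CPM in female floxed ones (SD, n = 3 each). It fell by 0.43 on the log2 scale (SE 0.10, adjusted p = 0.0463, or 0.0542 with RLE scaling), and its row shares exonic bases with a gene of the other strand.

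Of 17 genes known to respond to Foxo factors, 14 were tested, 1 rose and 0 fell, with a median of -0.14. The 1 was Ctla4, an inhibitory receptor of Treg cells, at 1114 ± 183 CPM in male knockout libraries and 802 ± 85.4 CPM in male floxed ones, and 1419 ± 306 CPM in female knockout libraries and 980 ± 73.5 CPM in female floxed ones (SD, n = 3 each), with a log2 fold change of 0.50 (SE 0.12, adjusted p = 0.0457). Of 12 protein partners of Foxp3, 10 were tested and Irf4 alone passed, with a median of -0.07. Of 20 family relatives of the members, 13 were tested and 0 passed (median -0.24), with the smallest p for Elf1 at 0.24 (SE 0.08, adjusted p = 0.144) and Gabpa at -0.36 (SE 0.14, adjusted p = 0.195). Of 24 cofactors of the members, 15 were tested and 0 passed (median -0.17). Kmt2d, a histone methyltransferase, had a value of -0.65 (SE 0.18, adjusted p = 0.0841). It lies on the poorly counted minus strand, with group means of 2.13 to 4.40 CPM. Ep300, a histone acetyltransferase, had a value of -0.17 (SE 0.10, adjusted p = 0.346). The male value of Ep300 was 0.21 (SE 0.14, adjusted p = 0.855) and its female value -0.54 (SE 0.14, adjusted p = 0.107). Over all tested genes 2.68% rose and 0.637% fell over both sexes, and the median was -0.02. No gene of these lists passed in males or in females alone. Irf4 lost its call when female floxed library 2 (adjusted p = 0.0574) or library 3 (adjusted p = 0.0575) was left out, within a range of 1.69e-05 to 0.111 over all its alternatives. Rbpj lost it without male knockout library 1, male floxed library 1, female knockout library 3 or any of the female floxed libraries, at adjusted p values of up to 0.0673. Lef1 kept its call only without male knockout library 3, male floxed library 4 or female knockout library 2, and Ctla4 only without library 3 of male knockout or library 2 of female knockout, when 1 library was left out. With the GC content and length correction Lef1 (adjusted p = 0.0612) and Ctla4 (0.103) also lost their calls, and Ctla4 lost it with plus-strand genes alone (0.0601). Over all alternatives the adjusted p ran from 0.00108 to 0.169 for Lef1 and from 0.00197 to 0.23 for Ctla4.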

How the data were processed

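RNA from sorted Treg cells was made into libraries with a SMARTer Stranded RNA-Seq kit, per the labels' protocols. The authors deposited raw read counts per gene, with no normalization. Per the submitters' processing notes the tools were CASAVA, HTSeq 0.6.1p1 and STAR in versions 2.3.0e and 2.5.2b, and the build mm9. The annotation, the strand setting and the role of each STAR version are not given in the sources used here. The 5 HTSeq summary entries were not used as genes: reads outside features were 44.3 to 46.9% of a library, not uniquely placed 14.1 to 17.3%, unaligned 4.73 to 8.01% and ambiguous 0.584 to 0.678%.

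Comparisons used edgeR 4.0.16 in R 4.3.3: filterByExpr on the 4 groups kept 12411 of 29806 genes with reads, TMM set the library scaling, and 1 robust quasi-likelihood model was fitted to all 12 libraries. Knockout was set against floxed in males, in females, over the mean of both, and between the sexes. P-values were Benjamini-Hochberg adjusted over all tested genes with a threshold of 0.05. Libraries within a group differed by more than counting noise (chi-square per degree of freedom 4.82 to 149). Intervals are at 95%. The members and lists were chosen with earlier results of these data known. All members were named, with every list gene past the threshold (up to 6 a list), otherwise the 2 of smallest p, and the 3 genes most like each member with at least 50 counts in every library. Strand, length and overlaps came from GENCODE M21, by symbol. Alternatives were RLE scaling, DESeq2 1.42.0, limma-voom 3.58.1 with quality weights, other filters, a replicate block, a GC content and length correction (mgcv 1.9.3), plus-strand genes alone, 1 sex alone, and left-out libraries. The pipeline was tested on simulated counts. Figures were drawn with matplotlib 3.10.9.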

Additional observations from a re-analysis of the deposited data

How the results depend on the processing

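In males 0 members passed by edgeR with all libraries. With the replicate block and the GC content and length correction together 1 (Ets1) passed, where 1.4% of all genes passed as lower and 0.967% as higher. In the block, male knockout library 3, the highest for Ets1, and male floxed library 4 have no partner and add nothing to the male contrast. The male values with the block, and the male part of those over both sexes, rest on libraries 1 and 2 of each male group. In females the count of 0 became 1 (Gata3) with DESeq2, where 7.3% of all genes passed, and 4 with limma-voom, where 43.8% did. It became 1 (Gata3) with the block and the correction (0.854% of all genes lower, 1.27% higher). With 1 library left out it was 0 to 1. The 1 was Gata3 without female knockout library 2, where 16.5% of genes passed as lower. Over both sexes the count became 1 with DESeq2 (9.17% of all genes) and 4 with limma-voom (37.3%). It became 3 (Ets1, Satb1 and Gata3) with the block and 3 with the block and the correction (8.72% of all genes lower, 6.28% higher). With 1 library left out it was 0 to 1, and 14.3% of genes passed as lower without female knockout library 2. Between the sexes the count became 1 with limma-voom (8.38% of all genes) and 0 to 1 with 1 library left out. Without female knockout library 2, 8.37% of genes passed there as lower.

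Shared library numbers are not said to mark a pair, so the block was used as an alternative alone. Same-numbered male libraries had correlations of their deviations from the group means of 0.442 and -0.614, and female ones 0.189, 0.279 and -0.225. Differently numbered ones had -0.372 to 0.673 in males and -0.48 to 0.459 in females. Deviations from a mean of 3 libraries depend on each other, so these values cannot show whether libraries were paired. With the replicate block the value over both sexes was -0.78 for Ets1, -1.77 for Satb1 and -1.26 for Gata3, and 5.79% of all genes passed as lower and 4.02% as higher. Foxp3 passed with the block (adjusted p = 0.042) and with block and correction (0.0122), while Ctla4 lost its call with both (0.0595 and 0.108).

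Male values that changed sign were Runx3 (-0.44 with limma-voom, -0.71 with the block, -0.53 with block and correction, -0.68 to 0.52 with 1 library left out), Cbfb (-0.02, -0.41, -0.52 and -0.25 to 0.68), Foxo1 (-0.18, -0.47, -0.35 and -0.28 to 0.30) and Nfatc1 (-0.22, -0.54, -0.42 and -0.27 to 0.23, and -0.03 when libraries 4 of male floxed and 2 of male knockout were left out). Runx1 ran from -1.23 to 0.55 and Ets1 from -0.97 to 0.00 in males with 1 library left out. Female values that changed sign were Cbfb (-0.03 with limma-voom, -0.03 to 0.17 with 1 library left out), Foxo1 (-0.01 with no filter and with plus-strand genes alone, -0.22 without knockout libraries 1 and 3, -0.12 to 0.12), Creb1 (-0.02 with the correction, with and without the block, 0.00 to 0.06), and, without knockout libraries 1 and 3, Runx1 (0.75) and Runx3 (0.01). Over both sexes they were Cbfb (-0.03 with limma-voom, -0.16 with the block, -0.24 with block and correction, -0.07 to 0.39) and Foxo1 (-0.07, -0.23, -0.10 and -0.12 to 0.16), and, without female knockout libraries 1 and 3, Runx1 (0.28), Runx3 (0.09) and Foxo1 (-0.08). The causes were not tested.

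The value of Gata3 stayed below 0 in each alternative that held it, from -0.72 to -0.28 in males, -2.55 to -0.63 in females and -1.51 to -0.55 over both sexes. Plus-strand genes alone, and a minimum of 5 CPM in 3 libraries, hold no minus-strand member. Over all alternatives 0 to 294 genes passed in males, 0 to 5437 in females and 44 to 4630 over both sexes. Counts of 0 to 145 per library limit the minus-strand members.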
